A study of Cricetulus griseus with 6 samples.

Results

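The genes described here encode the enzymes of de novo purine synthesis, the pathway that builds inosine monophosphate (IMP) on phosphoribosyl pyrophosphate (PRPP) and then converts it into AMP and GMP. Of 10 genes chosen by name for their place in this pathway, 9 had an array probe set assigned to that gene alone, out of 14899 genes measured in this way. The tenth, Gmps, which makes GMP from xanthosine monophosphate, shared its probe set with another locus and was not analysed here. Each of the 9 genes, namely Ppat, Gart, Pfas, Paics, Adsl, Atic, Impdh1, Impdh2 and Adss2, had 1 probe set. The cells were CHO-K1, an established line from Chinese hamster ovary, grown in suspension in a serum-free medium, SFM-F10, that lacked other polyamines and ornithine in both groups. The NoPUT group was 3 cultures kept for 3 days without putrescine, the diamine from which spermidine and spermine are made. The +PUT group was 3 parallel cultures in the same medium with 1 mg/l putrescine. RNA of each culture was hybridised to its own whole-transcript array, and the comparison asks how each gene's RNA level differed after 3 days without putrescine.

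De novo purine synthesis starts when PPAT attaches the amide nitrogen of glutamine to PRPP, a step that purine nucleotides feed back on. The ring is then closed by enzymes several of which carry more than a single activity, using glycine, glutamine, aspartate and formyl groups carried by tetrahydrofolate. IMP is the branch point: IMP dehydrogenase leads to GMP, and adenylosuccinate synthetase with adenylosuccinate lyase leads to AMP. The pathway is active in dividing cells, and mutants of CHO-K1 that need added purines are a classic tool for studying it.

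Arrays of the same group correlated at r = 0.9956 to 0.9962 across probe sets, and arrays of different groups at 0.9856 to 0.9878. Of the 5 measured mesenchymal markers of the line, 4 (Cd44, Lgals1, Timp1 and Vim) averaged at or above 10.45 on the log2 scale, while Thy1 was at 3.52. The ovarian genes Fshr (4.21) and Inha (4.43) lay close to the median of 13 markers of other tissues (4.05), and the steroid transport gene Star was at 6.76. The purine genes' probe sets averaged 8.27 to 11.72, so none was dim in the sense of lying at or below that other-tissue median of 4.05. The highest of the other-tissue markers, Actn3, was at 8.33, just above the dimmest purine gene, Pfas, at 8.27. Probe set levels depend on the probes and are compared here only within a gene.

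Without putrescine, Paics, Impdh2 and Pfas were higher, by 1.55-fold, 1.29-fold and 1.30-fold, and no gene of the pathway passed the test in the lower direction. The other 6 genes did not pass, with log2 differences from -0.16 for Adss2 to 0.24 for Atic. The test was limma with Benjamini-Hochberg adjustment over all 29700 probe sets and a threshold of 0.05. Of all probe sets 24.4% passed, 13.2% higher and 11.2% lower without putrescine. Among the 5935 probe sets at least as bright as the dimmest purine gene, 47.3% passed, 26.6% higher and 20.7% lower. The 3 of 9 purine genes (33.3%), all higher, lay between the shares for either direction, 24.4% and 47.3%. They were above the shares for higher alone, 13.2% and 26.6%. With 9 genes chosen with earlier results known, the count is not read as a result about the pathway, and the single genes carry the description. The median log2 difference of the 9 genes was 0.13, beside 0.01 for all probe sets. Most of those were dimmer than the 9 genes, and the median of the 5935 bright ones was not computed. Fewer cells with a given level and less RNA of a gene per cell cannot be told apart in such bulk samples.

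The first committed step did not differ beyond the spread between cultures. Ppat, which encodes the amidophosphoribosyltransferase, had log2 values of 10.66, 10.73 and 10.54 in the NoPUT cultures, against 10.48, 10.60 and 10.63 in the +PUT cultures. The groups overlapped. The log2 difference was 0.07 (SE 0.09, 95% interval -0.13 to 0.28, adjusted p = 0.636), which bounds the change between 0.913-fold and 1.21-fold.

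Gart encodes a trifunctional enzyme that adds glycine, transfers the first formyl group and closes the imidazole ring. Its values were 9.50, 9.61 and 9.56 without putrescine, against 9.64, 9.69 and 9.77 with it. All NoPUT cultures lay below all +PUT cultures, by a gap of only 0.03 on the log2 scale. The difference of -0.14 (SE 0.08, 95% interval -0.33 to 0.05) did not pass the test (adjusted p = 0.274).

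Pfas, the glutamine-using synthetase that acts between the steps of GART, was higher without putrescine. Its values were 8.43, 8.60 and 8.34 in the NoPUT cultures, against 8.08, 7.96 and 8.20 in the +PUT cultures. The groups did not overlap, and the gap between them was 0.14. The log2 difference was 0.38 (SE 0.10, 95% interval 0.14 to 0.61, adjusted p = 0.0279). Pfas had the widest spread of the 9 genes, with a residual SD of 0.13 beside 0.05 to 0.09 for the others. Its call was lost without NoPUT culture 1 (adjusted p = 0.0632), NoPUT culture 2 (0.0961), +PUT culture 1 (0.0693) or +PUT culture 2 (0.099), and with the replicate number as a block (0.0647), with adjusted p from 0.00879 to 0.099 over all alternatives.

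Paics showed the largest difference of the 9 genes. It encodes a bifunctional enzyme, a carboxylase joined to the synthetase that brings in aspartate. Its values were 11.99, 11.98 and 12.12 without putrescine, against 11.37, 11.39 and 11.44 with it. The lowest NoPUT culture was 0.54 above the highest +PUT culture, several times the spread within either group. The means were 12.03 ± 0.08 in NoPUT and 11.40 ± 0.04 in +PUT cultures (SD, n = 3 each). The log2 difference of 0.63 (SE 0.08, 95% interval 0.44 to 0.82) had adjusted p = 0.000791, and 4.88% of all probe sets, dim ones included, had a larger rise. The call held under all 11 alternatives, with differences from 0.585 to 0.655.

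**Figure D1:**
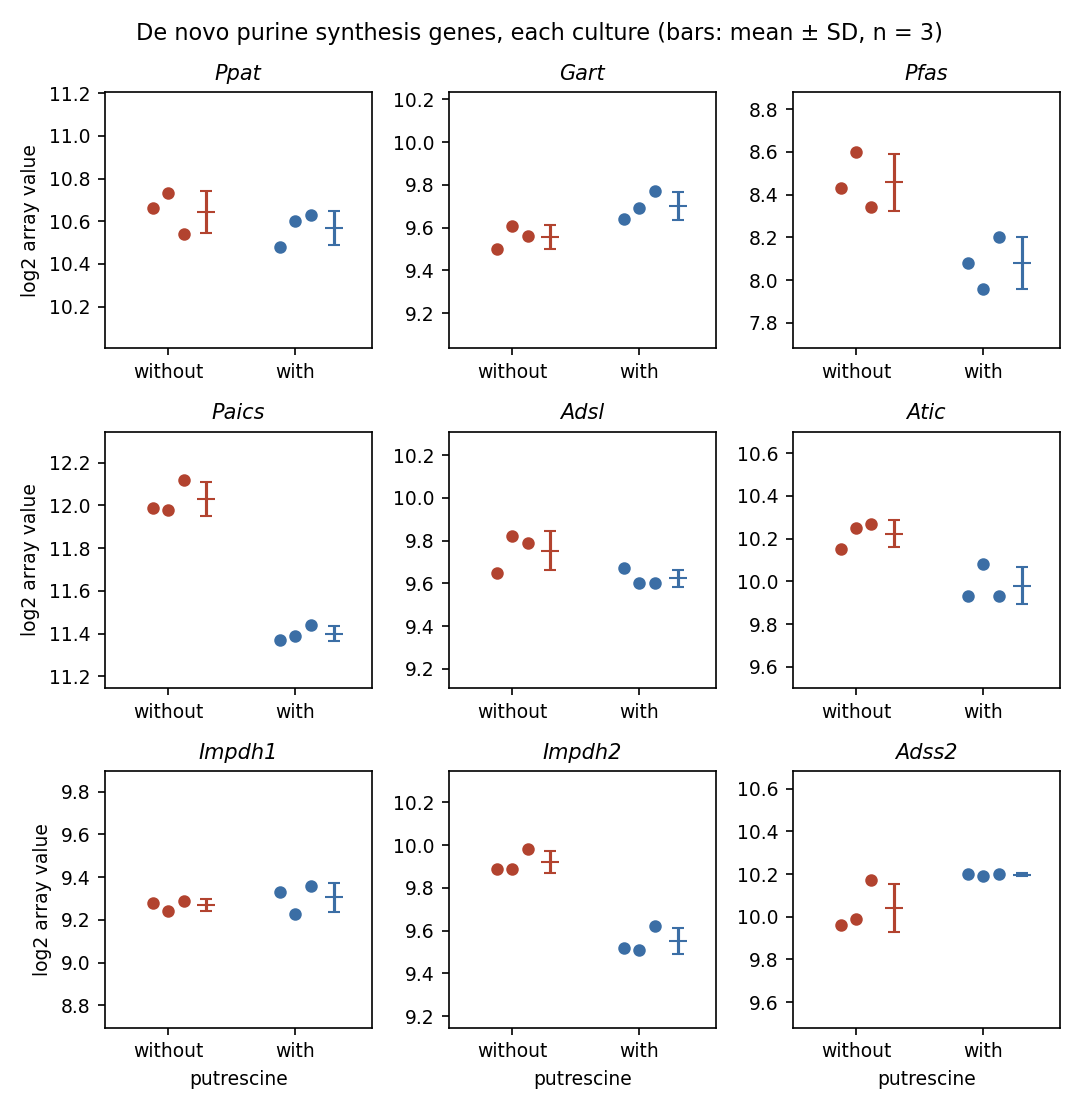
Log2 array value of each of the 9 purine genes in each culture (points), with the mean and SD of the 3 cultures beside them (bars). Every panel spans 1.2 on the log2 scale, and cultures without putrescine are on the left. Paics and Impdh2 separate most widely between the groups, with gaps of 0.54 and 0.27, while Ppat, Adsl and Impdh1 overlap.

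Adsl encodes the lyase that releases fumarate both on the way to IMP and in the AMP branch. Its values were 9.65, 9.82 and 9.79 without putrescine, against 9.67, 9.60 and 9.60 with it. NoPUT culture 1 fell inside the range of the +PUT cultures, so the groups overlapped. The difference was 0.13 (SE 0.09, 95% interval -0.06 to 0.32, adjusted p = 0.337).

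Atic, whose product adds the last formyl group and closes the ring to IMP, had values of 10.15, 10.25 and 10.27 without putrescine, against 9.93, 10.08 and 9.93 with it. The groups did not overlap, with a gap of 0.07. The difference of 0.24 (SE 0.09, 95% interval 0.05 to 0.44) missed the threshold (adjusted p = 0.0776). It passed when dim probe sets were left out (adjusted p = 0.0383) and with a variance prior fitted to the level (0.014). The range over all alternatives was 0.014 to 0.198.

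IMP dehydrogenase, at the branch point, commits IMP to guanine nucleotides. It exists as a pair of isozymes, of which IMPDH2 is known as the form raised in proliferating cells and IMPDH1 as the more evenly expressed form. Impdh2 had values of 9.89, 9.89 and 9.98 without putrescine, against 9.52, 9.51 and 9.62 with it. Every NoPUT culture was at least 0.27 above every +PUT culture. The difference was 0.37 (SE 0.08, 95% interval 0.18 to 0.56, adjusted p = 0.0107), and the call held under all 11 alternatives, with adjusted p from 0.000759 to 0.0428.

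Impdh1 had values of 9.28, 9.24 and 9.29 without putrescine, against 9.33, 9.23 and 9.36 with it. The NoPUT values lay within the range of the +PUT values. The difference was -0.04 (SE 0.08, 95% interval -0.22 to 0.15, adjusted p = 0.809), so that a change of more than 1.11-fold upward or below 0.858-fold lay outside the interval.

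Adss2, the adenylosuccinate synthetase that opens the AMP branch, had values of 9.96, 9.99 and 10.17 without putrescine, against 10.20, 10.19 and 10.20 with it. The +PUT cultures were nearly identical, and NoPUT culture 3 was only 0.02 below the lowest of them. The difference of -0.16 (SE 0.09, 95% interval -0.36 to 0.04) did not pass (adjusted p = 0.259). The other isozyme gene, Adss1, was not analysed here.

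The groups did not overlap for 6 of the 9 genes, namely Gart, Pfas, Paics, Atic, Impdh2 and Adss2, where 37.5% of all probe sets and 68.6% of those at least as bright as the dimmest of the 9 showed such separation. The residual SD of the 9 genes had a median of 0.07, beside 0.13 over all probe sets, most of them dimmer than these genes.

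**Figure D2:**
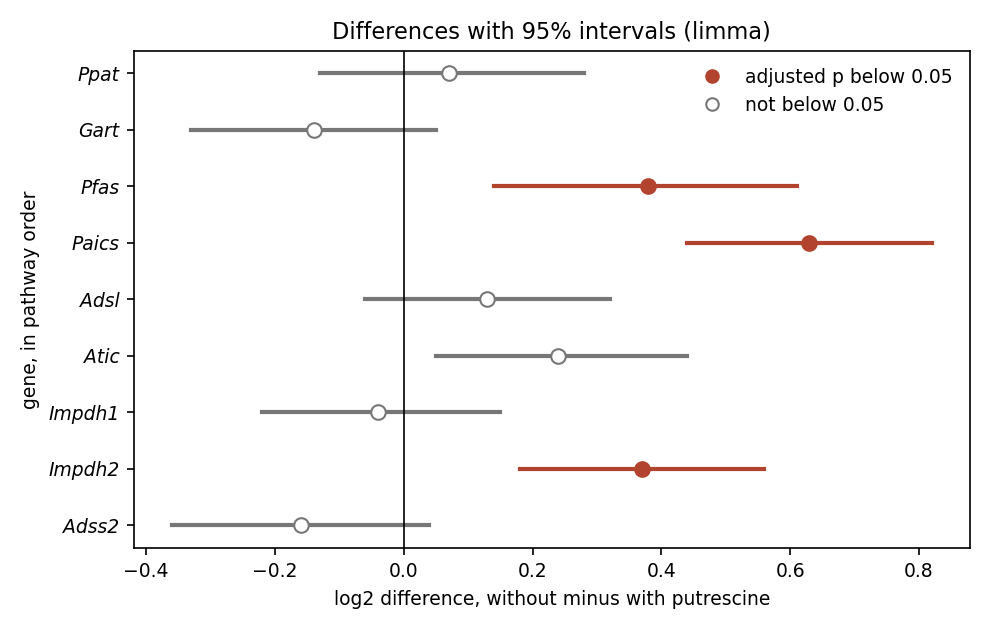
Log2 difference, without minus with putrescine, of the 9 genes in the order of the pathway from top to bottom, with the 95% interval of the limma fit (lines). Filled points passed the test. The intervals of Pfas, Paics and Impdh2 lie above 0, that of Atic starts at 0.05, and those of the other 5 genes span 0.

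A pair of comparisons inside the pathway was chosen after the values were seen, so they are given as descriptions of genes already known to differ in their change. Ppat and Paics are neighbours on the same chromosome in the RefSeq gene table of the hamster genome, with 0 other protein-coding genes starting between them, and in other vertebrates they are known to be transcribed in opposite directions from a shared promoter region. Within each array, Paics minus Ppat was 1.33, 1.25 and 1.58 in the NoPUT cultures, against 0.89, 0.79 and 0.81 in the +PUT cultures. The groups did not overlap, and the mean log ratio was higher by 0.56 without putrescine. Impdh2 minus Impdh1 was 0.61, 0.65 and 0.69 without putrescine, against 0.19, 0.28 and 0.26 with it. The ratio of these isozyme genes was higher by 0.41, again without overlap. In each case the exact two-sided permutation test over 3 against 3 cultures gave p = 0.1. That is the smallest value it can give, so this permutation test cannot reach the threshold of 0.05. The pairs joined genes already seen to differ in their change, so no conclusion is drawn from it.

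**Figure D3:**
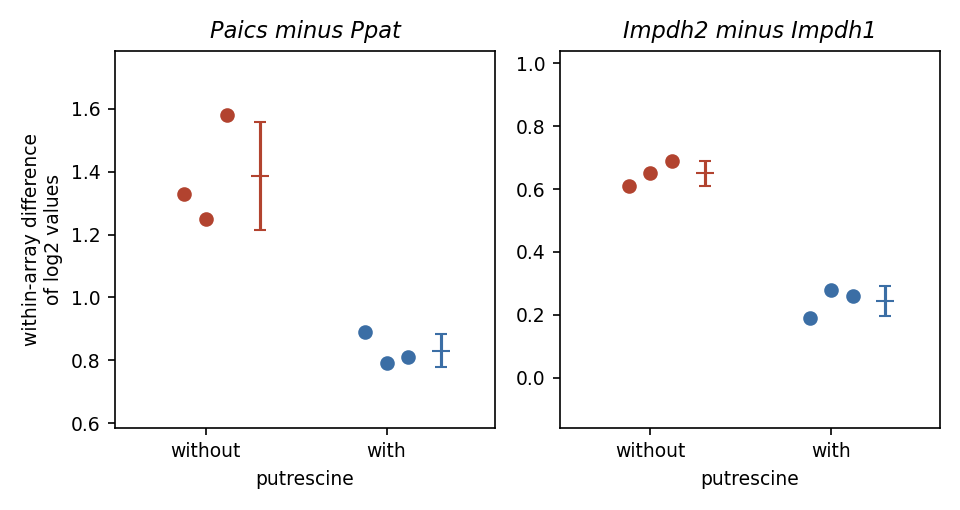
Within-array difference of log2 values for Paics minus Ppat (left panel) and Impdh2 minus Impdh1 (right panel) in each culture, with mean and SD of 3 cultures. Both panels span 1.2 on the log2 scale, and the cultures without putrescine lie above those with it in both.

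The supply of PRPP, the ribose-phosphate on which the ring is built, gave a result that depended on the probe set. Of 4 measured genes, represented by their brightest probe sets, 0 passed the adjusted test, and 1 of them, Prps1, had an unadjusted limma p under 0.05. Prps1, a PRPP synthetase, had values of 12.16, 12.19 and 12.35 without putrescine, against 11.99, 12.02 and 11.95 with it. The groups did not overlap, but the difference of 0.25 did not pass (adjusted p = 0.0741). It passed under 2 of the 11 alternatives, those without dim probe sets and with the level-fitted prior, with adjusted p from 0.00431 to 0.187 over all of them. A second probe set of Prps1 did pass, with a difference of 0.43 (SE 0.10, adjusted p = 0.012).

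The isozyme gene Prps2 had a difference of 0.06 (SE 0.08, 95% interval -0.13 to 0.25, adjusted p = 0.701). The PRPP synthetase-associated protein genes Prpsap1 and Prpsap2 had -0.04 and 0.21 and did not pass. A second probe set of Prpsap2 was higher by 0.33 (adjusted p = 0.0241).

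Serine is a source of glycine for the ring and of the folate-bound units that give its formyl groups. In the list of 18 measured genes of glycine, glutamine and folate one-carbon supply, 8 fell, 4 rose and 6 did not pass. The median log2 difference was -0.20, or -0.325 without the 2 dim genes. The share that passed was 66.7%, beside 24.4% of all probe sets and 47.3% of those at least as bright as the dimmest purine gene. This list, like the salvage, pyrimidine and regulator lists below, also holds genes dimmer than that. Its share is thus not matched for level with the 47.3%, and the difference between these shares was not tested. The mitochondrial enzymes that turn serine into formate were lower. Shmt2, the mitochondrial serine hydroxymethyltransferase, was at 9.83 ± 0.11 without and 10.46 ± 0.02 with putrescine, a difference of -0.62 (SE 0.09, adjusted p = 0.00104). Mthfd2, which follows it, was at 10.12 ± 0.06 without and 10.59 ± 0.06 with putrescine (-0.47, adjusted p = 0.00322). Mthfd1l, which releases formate, was at 9.05 ± 0.08 without and 9.87 ± 0.05 with putrescine (-0.83, adjusted p = 0.000228; SD, n = 3 each).

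The cytosolic counterparts moved the other way. Mthfd1, whose trifunctional product makes the 10-formyl-tetrahydrofolate used by GART and ATIC, had values of 10.87, 10.89 and 10.90 without putrescine, against 10.42, 10.31 and 10.44 with it. The difference was 0.50 (SE 0.08, adjusted p = 0.00232), and the groups did not overlap. Shmt1, the cytosolic serine hydroxymethyltransferase, rose by 0.49 (SE 0.11, adjusted p = 0.0107). The glycine cleavage gene Gcsh, which acts in mitochondria, rose as well, by 0.41.

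Among the other folate and serine genes 1 rose and 5 fell. Ggh, which removes the glutamate tail of folates, rose 2.24-fold, at 7.66 ± 0.03 without and 6.50 ± 0.08 with putrescine (SD, n = 3 each; adjusted p = 5.06e-05). Fpgs, which adds that tail, fell by 0.46 on the log2 scale. Slc46a1, a folate transporter gene, fell by 0.81 and Mthfs, which recycles a folate storage form, by 0.47. Their levels were 6.32 and 6.43 without putrescine, against 7.13 and 6.9 with it. Another folate transporter gene, Slc19a1, had -0.13 with overlapping groups and did not pass (adjusted p = 0.408). Of serine synthesis, Phgdh fell by 0.43 (adjusted p = 0.00803) and Psph by 0.41. Psat1, between them in the pathway, had -0.24 (adjusted p = 0.0543), and it passed under 3 of the 11 alternatives.

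Purines are also recovered from free bases and nucleosides, and of 24 measured genes of salvage, interconversion and breakdown 7 rose, 3 fell and 14 did not pass. The share that passed, 41.7%, lay between the 24.4% of all probe sets and the 47.3% of the bright ones. Hprt1, which rebuilds IMP and GMP from hypoxanthine and guanine with PRPP, had values of 10.72, 10.66 and 11.00 without putrescine, against 10.15, 10.18 and 9.98 with it. All NoPUT cultures were above all +PUT cultures, and the difference was 0.69 (SE 0.11, adjusted p = 0.00235), or 1.61-fold. Pnp, the phosphorylase that frees hypoxanthine and guanine from nucleosides, rose 1.44-fold (0.52, SE 0.09, adjusted p = 0.00235). Mtap, which frees adenine from the methylthioadenosine that polyamine synthesis leaves, rose 1.55-fold (0.63, adjusted p = 0.00104).

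The enzymes that take up adenine and adenosine did not pass. Aprt, which uses adenine, had a difference of 0.08 (95% interval -0.12 to 0.28, adjusted p = 0.574), and Adk, adenosine kinase, 0.21 (95% interval -0.02 to 0.44, adjusted p = 0.191). The GMP reductase genes Gmpr and Gmpr2, which return GMP to IMP, rose by 0.49 and 0.37. The level of Gmpr was low, at 5.74 without and 5.24 with putrescine. Guk1, which takes GMP on to GDP, fell by 0.49 (adjusted p = 0.00304). The nucleoside diphosphate kinase family genes Nme3 and Nme7 rose by 0.51 and 0.37. The call of Nme3 was lost without NoPUT culture 1, +PUT culture 1 or +PUT culture 3 and that of Nme7 without +PUT culture 2. Adenosine deaminase, Ada, fell by 0.50, and Xdh, which oxidises hypoxanthine, by 0.74. The level of Xdh was also low, at 5.95 without and 6.69 with putrescine, and Ada was at 6.86 and 7.36.

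**Figure D4:**
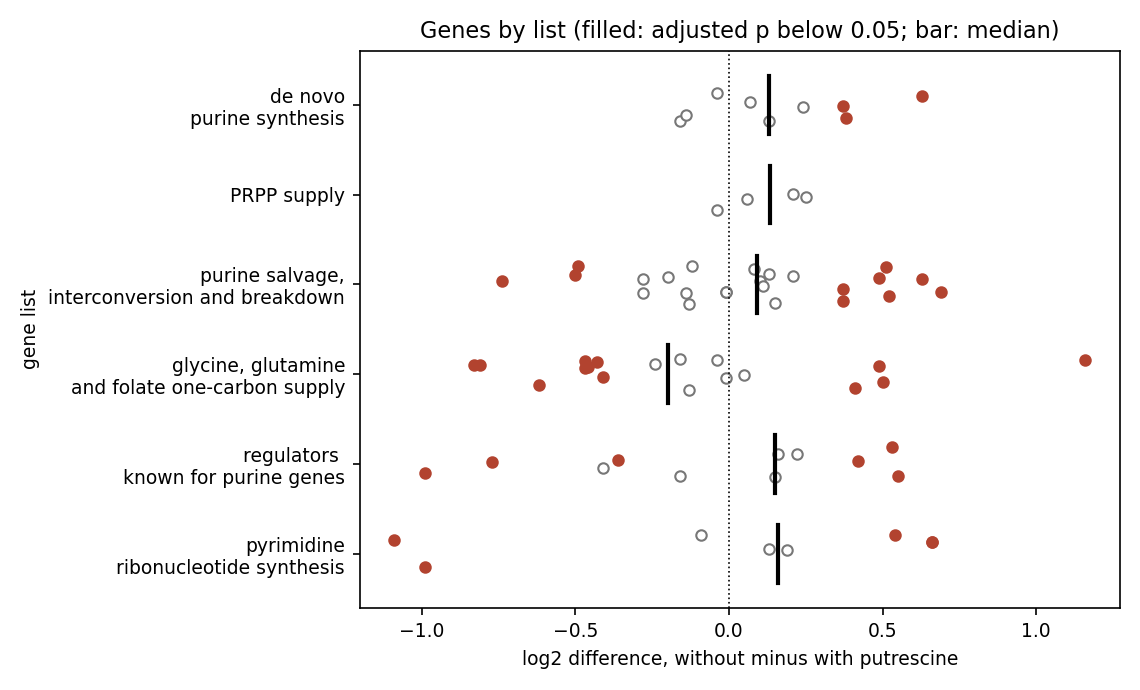
Log2 differences, without minus with putrescine, of the 9 de novo purine genes and of the genes of related lists, by list from top to bottom (filled points passed the test, black bars are medians; vertical scatter within a list has no meaning). The de novo genes span -0.16 to 0.63, while the one-carbon supply genes span -0.83 to 1.16.

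Pyrimidine ribonucleotide synthesis, the counterpart pathway, had 3 of 8 measured genes higher, 2 lower and 3 that did not pass. This was 62.5% of a short list, beside 24.4% of all and 47.3% of bright probe sets, and was not tested. Cad, whose product carries the first steps of that pathway, was at 9.89 ± 0.13 without and 9.35 ± 0.07 with putrescine (0.54, SE 0.10, adjusted p = 0.00357; SD, n = 3 each). Dhodh and Cmpk1 each rose by 0.66. The late-acting Ctps2 and the uridine kinase family gene Uckl1 fell by 0.99 and 1.09, and a second probe set of each was also lower (-0.86 and -1.19). Cmpk1 was at 6.68 without and 6.02 with putrescine, and Uckl1 at 6.17 and 7.26. The 3 that did not pass were Ctps1 (0.13), Uck2 (-0.09) and Umps (0.19). The entry enzymes thus had differences of 0.54 for Cad and 0.07 for Ppat; the difference between them was not tested.

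Among 11 regulators known for acting on purine genes or their enzymes, 3 rose, 3 fell and 5 did not pass. With 54.5% passing, beside 24.4% of all and 47.3% of bright probe sets, the count is not read as a result about the regulators. Myc, a transcription factor known to bind many purine synthesis genes, had values of 9.49, 9.35 and 9.05 without putrescine, against 9.86, 9.59 and 9.66 with it. The groups did not overlap, and the difference of -0.41 (SE 0.13) lay at the threshold (adjusted p = 0.0505), passing under 6 of the 11 alternatives (adjusted p 0.0131 to 0.152). Its partner gene Max rose by 0.53. Mycl fell by 0.99 (4.53 ± 0.14 without and 5.53 ± 0.15 with putrescine), at low levels not far above the other-tissue marker median of 4.05. E2f1 rose by 0.42.

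Atf4, known to induce Mthfd2 and serine synthesis genes, had a difference of 0.16 (95% interval -0.02 to 0.35, adjusted p = 0.206), and it passed under 1 of the 11 alternatives, the level-fitted prior (adjusted p = 0.0261). Of the mTORC1 branch, which is known to raise purine synthesis, Mtor fell by 0.36 and its inhibitor genes moved apart, with Tsc2 lower by 0.77 (-0.77, adjusted p = 0.00099) and Tsc1 higher by 0.55. Rptor and Rps6kb1 did not pass (0.22 and 0.15).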

How the data were processed

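The 6 arrays, 3 per group, were all analysed. The deposited table holds 1 value for each of 29700 probe sets and array, made by the authors with Transcriptome Analysis Console, per the submitters' processing notes (version, settings and summarisation: not given in the sources used here). These deposited values were taken as log2 from their range (1.55 to 13.66), and array medians (4.92 to 4.98) were those of values already normalized between arrays; such scaling hides any change in total RNA. The 1 missing value was in no purine gene. By the array's annotation, 16481 probe sets carried 1 gene symbol, 793 several and 12426 none. All 9 members matched the RefSeq gene table by Entrez identifier.

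Group was the single factor in the linear model, run with limma 3.58.1 (R 4.3.3; lmFit, eBayes, prior degrees of freedom 4.58) and checked on simulated data. Tests were two-sided, adjusted by Benjamini-Hochberg over all probe sets, with a threshold of 0.05. Differences are NoPUT minus +PUT. The number of arrays limits the precision. The labels call the cultures biological triplicates.

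Alternatives were quantile normalization, median centring, a filter at the median level of other-tissue markers (4.05), the replicate number as a block, eBayes with trend and robust (the level-fitted prior), and leaving out each culture. Same-numbered cultures did not clearly deviate together over all probe sets (r = 0.0452, -0.101 and -0.0204 for numbers 1, 2 and 3), so the numbers were not taken as pairs.

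The members and lists were chosen with earlier results of these data known. Every member was described, and of each related list the 4 genes with the smallest p and a set of core genes. The other genes that passed were named after their values were seen, as were Slc19a1, Ctps1, Uck2, Umps, Rptor and Rps6kb1, which did not pass. A related gene was represented by its brightest probe set. No promoter or protein sequence was used here, so the planned motif search was not run.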

Additional observations from a re-analysis of the deposited data

How the results depend on the processing

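Over the 11 alternatives, 2 to 4 purine genes passed as higher and 0 as lower, and 5810 to 8065 probe sets passed in all. Paics and Impdh2 kept their calls under all 11, and Ppat, Gart, Adsl, Impdh1 and Adss2 passed under none. With the replicate block, which took the whole count to 6408 of 29700 probe sets, Pfas (0.377) lost its call (adjusted p = 0.0647). Over all probe sets the numbers showed no pairing, since only NoPUT culture 1 correlated best with its own number. With 3 cultures per group such correlations cannot exclude pairing. Without single cultures Pfas ranged from 0.305 to 0.437. Atic (0.243) gained a call with the filter on dim probe sets and with the level-fitted prior, as did 1 PRPP supply gene. The median of the purine genes was 0.089 after quantile normalization and 0.097 to 0.182 without single cultures. Such medians ran from 0.037 to 0.108 for salvage (lowest without +PUT culture 2), from 0.078 to 0.170 for PRPP supply (lowest without +PUT culture 1), from 0.105 to 0.167 for the regulators and from -0.287 to -0.181 for one-carbon supply, whose median was -0.325 with the filter. Prpsap1 turned to 0.015 without NoPUT culture 3, in a range from -0.075 without single cultures. The log ratio of Paics to Ppat kept its sign after quantile normalization and without single cultures, at 0.460 to 0.625. That of Impdh2 to Impdh1 did so too, at 0.380 to 0.427. Both ratios, and so these checks of them, were chosen after the values were seen. Subtracting array medians cannot change these ratios. The causes were not tested. The planned motif search was not run.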
